A study of Oryza sativa with 12 samples.

Results

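Pathogenesis-related (PR) proteins of 6 structural families were followed through a heat treatment of rice, Oryza sativa. The members are the genes whose domain description in the deposited table names a chitinase, a glycosyl hydrolase of family 18 (GH18), a thaumatin, a barwin domain, a cysteine-rich secretory protein (the PR-1 fold) or a Bet v I domain (the PR-10 fold). The rule used the descriptions alone and no measured value. It found 154 of the 40674 genes in the table, of which 18 carry chitinase wording, 31 are GH18, 60 thaumatin, 5 barwin, 32 PR-1 and 8 PR-10 genes.

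RNA was sequenced from the aerial organs of seedlings aged 12 days, from a pair of near-isogenic lines that differ at the TT2 locus. In the labels NIL-TT2HJX, called HJX here, has the genotype wild type, while NIL-TT2HPS32, called HPS32 here, has a loss of function of TT2. TT2 encodes a heterotrimeric G protein gamma subunit. Both were raised at 28 °C and then kept for 20 h at 28 °C or at 42.5 °C, with 3 libraries in each of the 4 groups. The labels do not give the size of the exchanged segment, the number of independent lines per allele, or whether the libraries of a group came from separate plants. The p-values below therefore measure the spread between these libraries, which may be technical.

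PR proteins are a loose class of defence proteins, mostly secreted to the cell wall space or stored in vacuoles, that plants make in larger amounts after infection. Chitinases and many GH18 proteins cut chitin, the wall polymer of fungi, although some GH18 proteins of cereals have lost that activity and inhibit fungal xylanases instead. Thaumatin-like proteins can permeabilise fungal membranes, barwin-type proteins bind or cut wall carbohydrates, PR-1 proteins bind sterols and serve as a standard read-out of salicylate signalling, and PR-10 proteins are small cytosolic proteins that bind hydrophobic ligands. In rice, salicylate responses run through the co-activator NPR1 and the transcription factor WRKY45, and several members of these families are also used outside defence, in wall assembly, growth and drought or salt stress.

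Of the 154 members, 82 passed the filter on low counts and were tested, 43 had no read in any of the 12 libraries, and 29 held between 1 and 83 reads over all libraries, with a median of 30. Tested members numbered 15 of the 18 chitinase genes, 22 of 31 GH18, 23 of 60 thaumatin, 3 of 5 barwin, 12 of 32 PR-1 and 7 of 8 PR-10 genes. The unread members were mostly thaumatin genes, 24 of the 43, and PR-1 genes, 14 of the 43. At this depth an unread gene is not shown to be silent. All unread thaumatin entries except Os06g0233451, Os06g0281550 and Os12g0628600 overlap another thaumatin entry on the opposite strand. For instance, Os03g0244333 lies inside Os03g0244200. The entries are thus not all separate loci, and how reads of such pairs were assigned was not tested. All counts of called members below refer to the 82.

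Libraries held between 14785975 and 17871972 reads assigned to genes, and 25473 genes were tested in all. TT2 itself had 9 and 8 reads over the HJX libraries at 28 °C and under heat, and 7 and 16 over those of HPS32, too few to check the labels. Genes of chlorophyll a/b binding proteins, which mark green tissue, summed to between 72970 and 91390 CPM (TMM-scaled counts relative to depth) in HJX and between 81240 and 83370 in HPS32 at 28 °C. Of the 22 listed, 20 were tested. Under heat the same sums were 1985 to 3221 in HJX and 5079 to 6460 in HPS32. The root transporter genes LSI1 and LSI2 summed to between 2.06 and 13.5 CPM, and the 34 seed storage and oil body genes to between 0.872 and 9.09 CPM. The part of the loss of green-tissue transcripts in the results below was not tested, and in bulk tissue fewer cells of a type and less RNA per cell cannot be told apart. Library scaling moved under heat: scaled by total reads alone instead of TMM, the median over all tested genes went from 0.03 to 0.32 for heat in HJX and from -0.03 to 0.54 for heat in HPS32, on the log2 scale. Changes are given relative to the TMM scaling.

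Levels were compared between genes per length, as CPM per kilobase of the gene length in the deposited table. Summed over all 154 members they were 3979 ± 386 CPM per kb in HJX at 28 °C and 4889 ± 233 under heat, against 3992 ± 241 and 3017 ± 90.4 in HPS32 (SD, n = 3). These sums carry the TMM factors, which in HPS32 were 0.8561 to 0.8649 at 28 °C and 1.261 to 1.278 under heat. The HPS32 sum is lower under heat only with these factors. A single GH18 gene, Os05g0247100 (chromosome 5, 8902501 to 8903789), accounted for 29.5% of the HJX sum and 32.65% of the HPS32 sum at 28 °C, and for 34.2% and 28.4% under heat. The GH18 gene Os06g0356800 went from 2.39% of the sum to 18.05% in HJX and from 2.81% to 17.7% in HPS32. Together the 10 genes with the highest mean level held 62.8% of the HJX sum at 28 °C and 81.5% under heat, and 64.1% and 73.9% of the HPS32 sum.

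**Figure D1:**
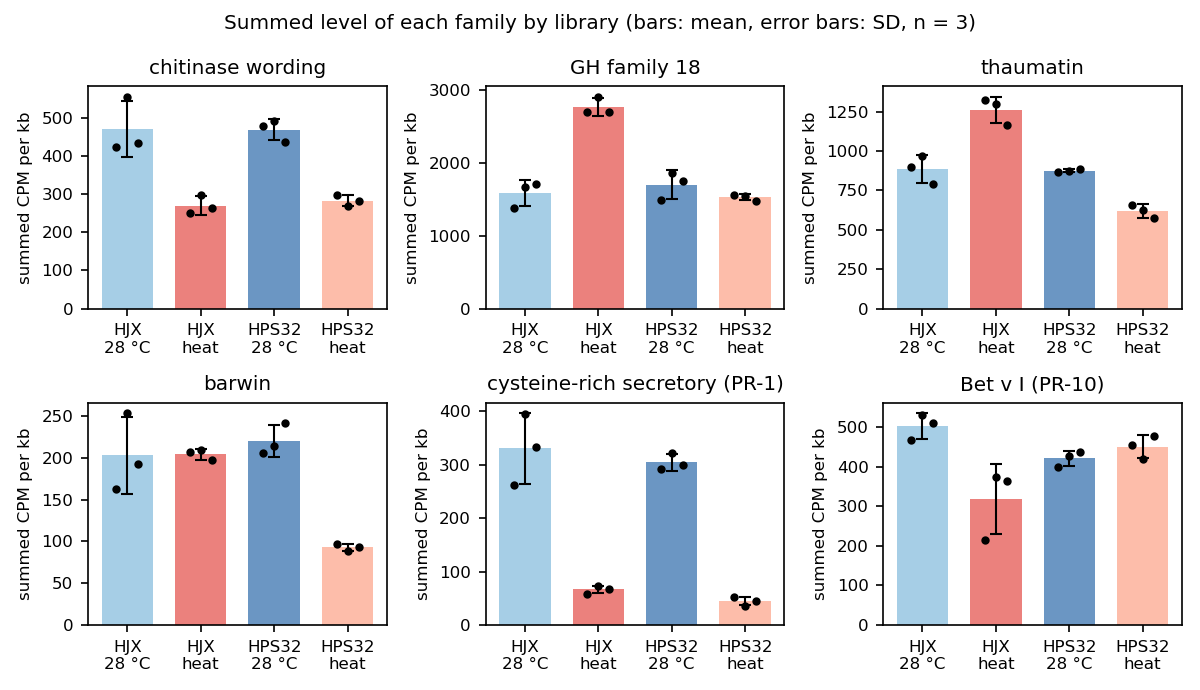
Summed CPM per kb of each family (vertical axes, linear from 0) in the 4 groups. Points are libraries, bars the mean and error bars the SD of 3 libraries. Values are TMM-scaled, and some differences between the HPS32 groups depend on that scaling. The PR-1 sum stands at 330.1 and 304.5 CPM per kb at 28 °C and at 66.5 and 44.6 under heat in HJX and HPS32, while the GH18 sum under heat is 2766 CPM per kb in HJX and 1526 in HPS32.

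Family sums changed by family and by line. The PR-1 sum went from 330.1 ± 66.02 to 66.5 ± 7.05 CPM per kb in HJX and from 304 ± 15.8 to 44.6 ± 8.12 in HPS32 under heat. The chitinase sum went from 472 ± 73.9 to 271 ± 24.96 CPM per kb in HJX and from 471 ± 28.3 to 284 ± 13.6 in HPS32. For GH18 the HJX sum went from 1583 ± 177 to 2766 ± 121 CPM per kb, and the HPS32 sum from 1699 ± 196 to 1526 ± 43.2. With TMM scaling the PR-1 and chitinase sums were thus lower in every heat library than in any 28 °C library. The GH18 sum was higher under heat in the HJX libraries, with overlap between the HPS32 groups. Without the TMM factors the GH18 sum is higher in every heat library of HPS32 as well, and the chitinase sums of the HPS32 groups overlap. The separation of the PR-1 sums does not depend on these factors. Thaumatin genes summed to 887 ± 90.8 and 1264 ± 83.3 CPM per kb in HJX and to 876 ± 9.15 and 619 ± 43.1 in HPS32, at 28 °C and under heat. Barwin genes summed to 203 ± 45.99 and 204 ± 6.42 CPM per kb in HJX and to 220.3 ± 18.8 and 92.9 ± 4.16 in HPS32. PR-10 genes summed to 504 ± 32.2 and 318 ± 88.5 CPM per kb in HJX and to 421 ± 19.6 and 451 ± 28.6 in HPS32. Thaumatin and barwin sums under heat were higher in each HJX library than in each HPS32 library, and PR-10 sums lower. As with the sum over all members, the thaumatin sum of HPS32 is lower under heat only with the TMM factors. These sums are descriptions, dominated by their highest genes, and carry no test.

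Heat was first set against 28 °C within each line. In HJX 45 of the 82 tested members fell (54.9%) and 23 rose (28%), with edgeR's quasi-likelihood test and a Benjamini-Hochberg threshold of 0.05 over all 25473 genes. Among all tested genes 36.8% fell and 38.1% rose. In HPS32 46 members fell (56.1%) and 16 rose (19.5%), beside 36.4% and 34.0% of all tested genes. The median log2 fold change of the members was -0.61 in HJX and -0.64 in HPS32, against 0.03 and -0.03 over all tested genes. Scaled by total reads, 27 members rose and 38 fell in HJX (median -0.31, against 0.32 for all genes), and 25 rose and 32 fell in HPS32 (median -0.08, against 0.54). That scaling called 12238 rises and 7289 falls among all 25473 tested genes in HJX, and 14369 and 5063 in HPS32. The heat and 28 °C libraries did not overlap for 84.15% of the members in HJX and 80.49% in HPS32, beside 77.29% and 74% of all tested genes. Between the lines, 53.66% of the members did not overlap under heat and 8.54% at 28 °C, beside 58.21% and 10.35%. Separation of libraries, given for single genes below, is thus common among all genes under heat.

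Of the members that fell, 39 did so in both lines, 86.7% of the HJX list and 84.8% of the HPS32 list. Over all tested genes these shares were 81.2% and 82.2%, so the members lay near the background. Of those that rose, 11 did so in both, 47.8% of the HJX list and 68.8% of the HPS32 list, beside 74.5% and 83.5% over all tested genes. A further 4 members were called in opposite directions: the barwin genes Os11g0592000 and Os11g0592100 and the GH18 gene Os05g0247100 rose in HJX and fell in HPS32, and the thaumatin gene Os06g0691200 did the reverse. The first pattern held 3.66% of the members and 1.645% of all tested genes, and the second 1.22% and 0.4004%. Scaled by total reads, none of these 4 members kept both of its calls, as given with each gene below. Of the other tested members, 9 rose in HJX without a call in HPS32, 5 fell in HJX alone, 4 rose and 4 fell in HPS32 alone, and 6 had no call in either line. In the same order these are 10.98%, 6.10%, 4.88%, 4.88% and 7.32% of the members, beside 8.05%, 6.51%, 5.19%, 4.84% and 15.07% of all tested genes. A call in a single line does not by itself show that the lines differ, and the test of that difference follows the account of the families.

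**Figure D2:**
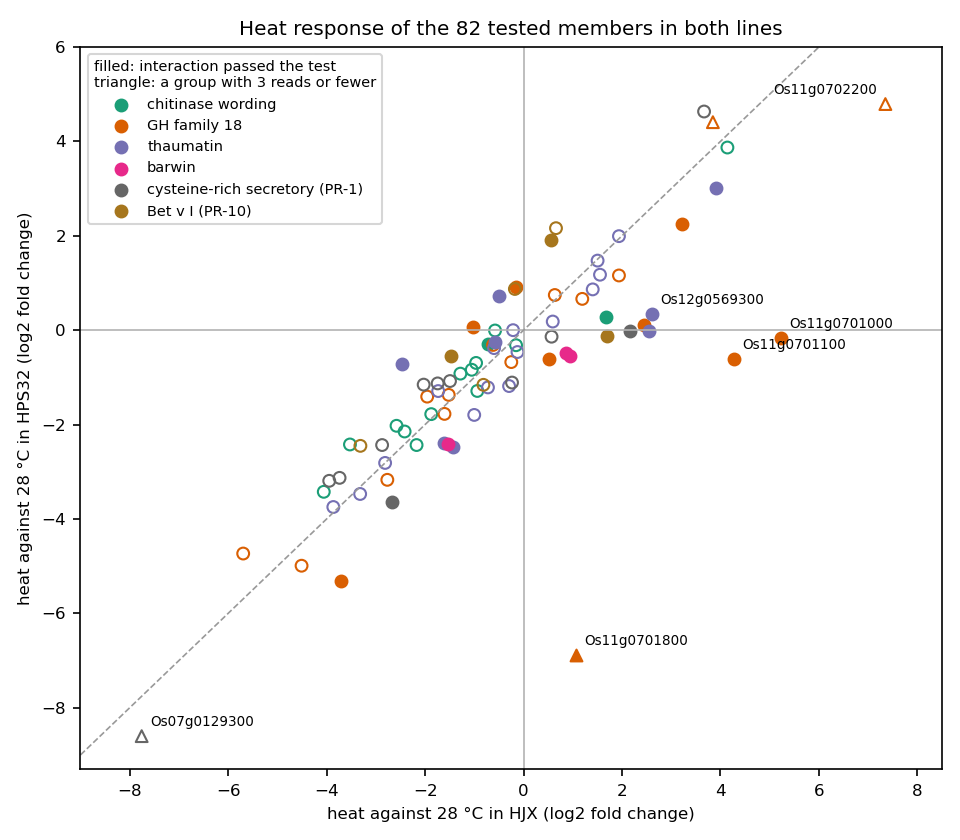
Log2 fold change of heat against 28 °C in HJX (horizontal) and HPS32 (vertical) for the 82 tested members, coloured by family, with the dashed line marking equal responses. Filled symbols passed the test of the difference between the lines (27 members), and triangles mark genes with 3 reads or fewer in a group, whose fitted values are not read as sizes. The 39 members that fell in both lines fill the lower left, and Os11g0701000, Os11g0701100 and Os12g0569300 lie at 5.23, 4.28 and 2.61 for HJX and at -0.17, -0.61 and 0.33 for HPS32.

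Of the 15 tested genes with chitinase wording, 12 fell and 2 rose in HJX (median -1.05), and 10 fell and 1 rose in HPS32 (median -0.92). Scaled by total reads, 10 fell and 2 rose in HJX (median -0.76), and 8 fell and 3 rose in HPS32 (median -0.37). Os03g0132900 (chromosome 3, 1860429 to 1861772) read 22.1, 27.3 and 28.3 CPM at 28 °C and 1.79, 1.62 and 1.26 CPM under heat in HJX (libraries 1, 2 and 3 in this order throughout). The HPS32 libraries read 27.2, 21.6 and 22.96 CPM at 28 °C and 2.05, 2.399 and 2.22 CPM under heat. Heat libraries lay far below all 28 °C libraries in both lines, a fall of more than 10-fold (HJX log2 -4.06 ± 0.17, adjusted p = 3.56e-14; HPS32 log2 -3.42 ± 0.16, adjusted p = 2.86e-13; values after ± in fold changes are standard errors). The gene with the largest rise, Os05g0399300 (chromosome 5, 19426767 to 19427874), read 2.33, 4.05 and 3.398 CPM and then 51.5, 70.6 and 51.9 CPM under heat in HJX. HPS32 had 2.05, 3.56 and 2.46 CPM at 28 °C and 40.9, 38.4 and 39.3 CPM under heat. Every heat library stood above every 28 °C library, and the HJX heat libraries above those of HPS32 (HJX log2 4.14 ± 0.19, adjusted p = 1.54e-11; HPS32 log2 3.87 ± 0.195, adjusted p = 7.37e-11). That difference between the lines under heat was called (log2 -0.55 ± 0.15, adjusted p = 0.0065), though not by total reads (-0.29, adjusted p = 0.113). Its neighbour Os05g0399400, which starts less than 10 kb downstream on the same chromosome, was not called in either line (-0.15 ± 0.15 and -0.32 ± 0.15), though the HPS32 value passed without HJX replicate 1 or HPS32 replicate 3 at 28 °C or HPS32 heat library 1 (adjusted p 0.0272 to 0.0438).

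Chitinases of the class that carries a chitin recognition domain, a small module that anchors the enzyme on chitin, numbered 7, of which 5 were tested. In HJX 4 of the 5 fell and none rose, and in HPS32 3 fell. Os02g0605900 fell in both lines (-2.42 ± 0.504 and -2.15 ± 0.49), with 55.2, 47.1 and 21.3 CPM in the HJX and 71.3, 27.9 and 24.9 CPM in the HPS32 libraries at 28 °C. Without HPS32 replicate 1 at 28 °C its HPS32 value was -1.504. Os03g0418000 went from 3.19 ± 0.116 to 0.2702 ± 0.0256 CPM in HJX and from 2.999 ± 1.01 to 0.552 ± 0.3397 CPM in HPS32 (mean ± SD, n = 3), a fall in both lines (-3.53 ± 0.42 and -2.42 ± 0.37, the latter -3.01 without HPS32 heat library 3). Os06g0726200 fell in both (-0.96 ± 0.21 and -0.69 ± 0.204), and Os04g0494100 fell in HJX (log2 -0.58 ± 0.23, adjusted p = 0.0449), a call lost without any single library except HJX replicate 1 at 28 °C (adjusted p 0.0519 to 0.135) and with the replicate number at 28 °C as a block (-0.29, adjusted p = 0.173). The fall of Os04g0494100 was also not called by total reads, without the low-count filter or with only the compared groups (adjusted p 0.0697 to 0.301), nor was that of Os06g0726200 in HPS32 by total reads (-0.13, adjusted p = 0.575).

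Of the 10 tested genes without the domain, 8 fell and 2 rose in HJX, and 7 fell and 1 rose in HPS32. Falls in both lines included Os04g0493400 (-1.88 ± 0.15 and -1.78 ± 0.15), Os01g0287600 (-2.58 ± 0.27 and -2.03 ± 0.26), Os08g0522500 (-1.05 ± 0.09 and -0.84 ± 0.088) and Os10g0542900 (-0.94 ± 0.17 and -1.29 ± 0.17). Os09g0494200, known in rice as BC15, belongs to the chitinase-like proteins that take part in cellulose deposition and lack chitinase activity. It read 94.1, 106 and 89.3 CPM in HJX and 109, 114 and 97.1 CPM in HPS32 at 28 °C. Under heat it read 59.7, 59.4 and 55.4 CPM in HJX and 83.2, 84.7 and 93.7 CPM in HPS32. The heat libraries were below the 28 °C libraries in both lines and those of HPS32 above those of HJX (HJX log2 -0.73 ± 0.081, adjusted p = 1.21e-07; HPS32 log2 -0.29 ± 0.08, adjusted p = 0.00304). Scaled by total reads, the HPS32 value turned to 0.27 (adjusted p = 0.00448). An unannotated transcript similar to chitinase-like protein 1 (chromosome 12, 6638369 to 6643358) went from 42.6 ± 3.104 to 9.39 ± 2.11 CPM in HJX and from 38.5 ± 0.933 to 7.12 ± 0.6001 CPM in HPS32 (log2 -2.17 ± 0.13, adjusted p = 8.42e-12, and log2 -2.43 ± 0.13, adjusted p = 3.07e-12). An unannotated transcript similar to a xylanase inhibitor of the class III chitinase type (chromosome 2, 7514036 to 7515666) read 1.46, 1.31 and 2.67 CPM at 28 °C and 5.62, 6.301 and 5.402 CPM under heat in HJX (log2 1.67 ± 0.3, adjusted p = 5.01e-05). In HPS32 it read 0.659, 1.64 and 1.83 CPM at 28 °C and 1.95, 1.71 and 1.39 CPM under heat, with overlap (log2 0.28 ± 0.34, adjusted p = 0.468; with the replicate block 0.89, adjusted p = 0.0488, and by total reads 0.84, adjusted p = 0.0317).

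GH18 genes split evenly in HJX, where 8 of 22 rose and 9 fell (median 0.18), and 5 rose and 10 fell in HPS32 (median -0.46, or 0.10 when scaled by total reads). The gene with the highest level of all members, Os05g0247100, stood at 1174 ± 134 CPM per kb in HJX and 1303 ± 159 CPM per kb in HPS32 at 28 °C. Its HJX libraries read 1322, 1560 and 1659 CPM at 28 °C and 2120, 2235 and 2108 CPM under heat. Its HPS32 libraries read 1454, 1856 and 1729 CPM at 28 °C and 1127, 1103 and 1079 CPM under heat. No groups of a line overlapped, and the change had opposite signs (HJX log2 0.51 ± 0.1, adjusted p = 0.000138; HPS32 log2 -0.61 ± 0.1, adjusted p = 2.32e-05). The fall in HPS32 rested on the scaling and was -0.045 (adjusted p = 0.701) by total reads. Os06g0356800 (chromosome 6, 14646987 to 14648089) rose in both lines, from 101, 125 and 88.2 to 962, 1028 and 929 CPM in HJX (log2 3.21 ± 0.11, adjusted p = 2.2e-15). In HPS32, Os06g0356800 went from 114, 126 and 131 to 588, 616 and 560.3 CPM (log2 2.25 ± 0.105, adjusted p = 4.06e-13). The HJX heat libraries lay above all HPS32 heat libraries, and both above every library at 28 °C.

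**Figure D3:**
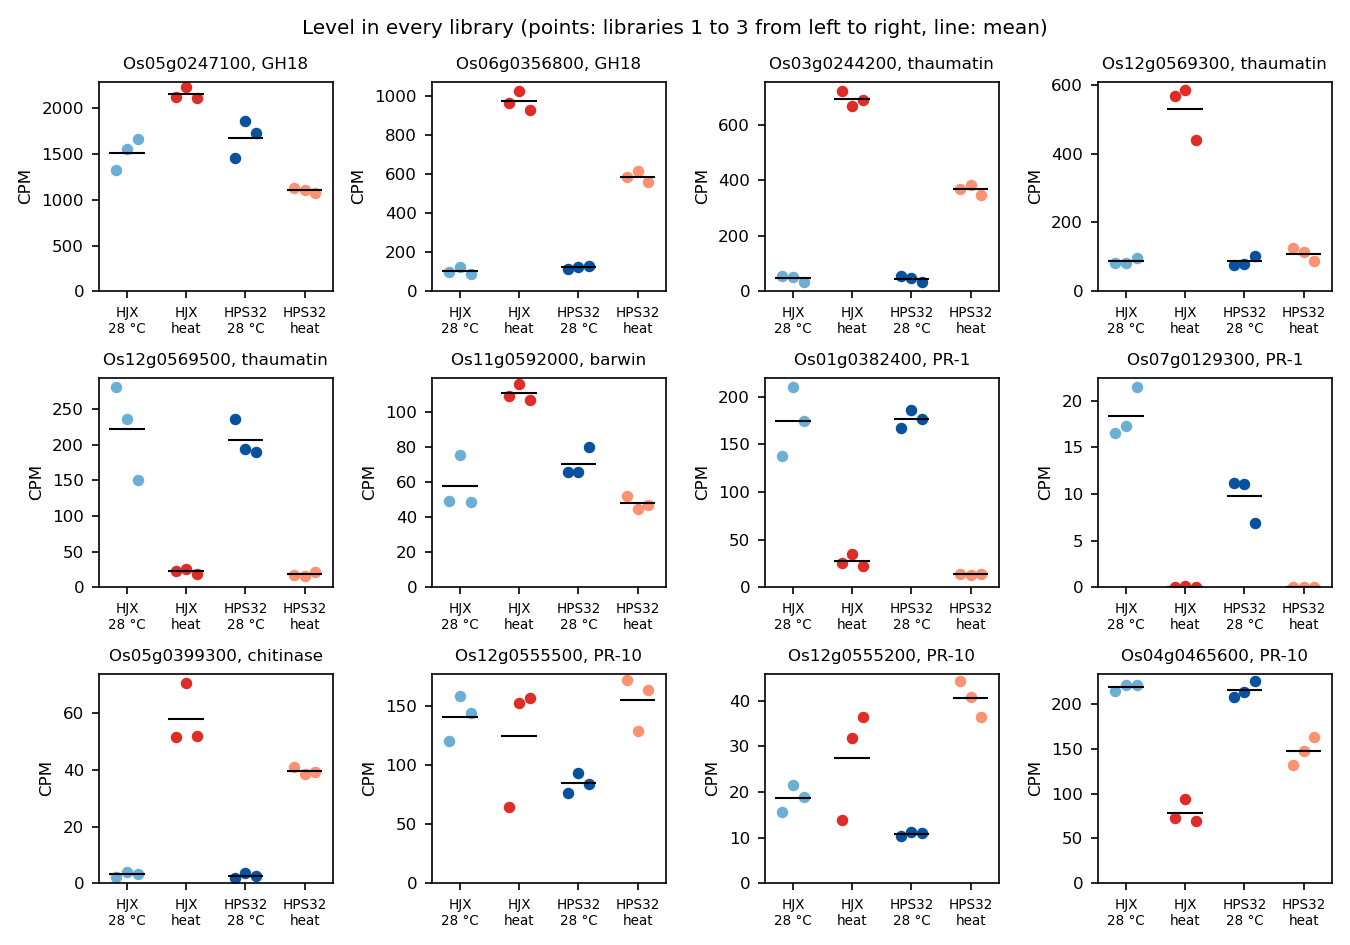
CPM (vertical axes, linear from 0) of 12 members in the libraries of each group, with points for libraries 1 to 3 and a line at the mean. Os05g0247100 lies between 2108 and 2235 CPM in the HJX heat libraries and between 1079 and 1127 CPM in those of HPS32, and PBZ1 (Os12g0555500) reads 64.3 CPM in HJX heat library 1 beside 153 and 157 CPM in the other HJX heat libraries.

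Other GH18 genes fell to low levels in both lines. Os01g0687400 read 29.3, 21.7 and 16.1 CPM in HJX at 28 °C and 0.299, 0.499 and 0.472 CPM under heat, and 32.6, 20.8 and 9.51 CPM at 28 °C and 1.03, 0.693 and 0.619 CPM under heat in HPS32. Its 28 °C libraries were uneven but lay well apart from the heat libraries (HJX log2 -5.695 ± 0.602, adjusted p = 1.65e-05; HPS32 log2 -4.73 ± 0.54, adjusted p = 3.31e-05). Os01g0860400 (-4.51 ± 0.46 and -4.99 ± 0.47), Os01g0660200 (-1.61 ± 0.13 and -1.77 ± 0.13) and Os07g0632000 (-2.77 ± 0.59 and -3.17 ± 0.58) fell in both lines as well, whereas Os08g0518900 rose in both (1.94 ± 0.34 and 1.16 ± 0.38). The HPS32 rise of Os08g0518900 was lost without HPS32 replicate 1 at 28 °C (0.835, adjusted p = 0.0616), and its HJX value was 2.54 without HJX replicate 2. The HJX value of Os07g0632000 was -2.01 without HJX replicate 1 at 28 °C. A chromosome 10 run of 3 GH18 genes, Os10g0416100, Os10g0416500 and Os10g0416800 (14558964 to 14603656), had values of -1.52 ± 0.101, -1.96 ± 0.23 and -0.25 ± 0.23 in HJX and of -1.37 ± 0.1, -1.41 ± 0.22 and -0.68 ± 0.23 in HPS32. All were called except Os10g0416800 in HJX, and its call in HPS32 was lost with the replicate block (-0.25, adjusted p = 0.186), by total reads (-0.11, adjusted p = 0.685) and without HPS32 replicate 2 or 3 at 28 °C or HPS32 heat library 2 or 3 (adjusted p 0.0803 to 0.0851). Os11g0462100 fell in HJX, from 8.88, 12.01 and 11.5 to 5.02, 5.18 and 5.61 CPM, and read 6.96, 11.4 and 7.61 CPM at 28 °C and 8.82, 8.85 and 9.69 CPM under heat in HPS32, where the groups overlapped (-1.03 ± 0.18 and 0.075 ± 0.17; by total reads the second value was 0.64, adjusted p = 0.00315). Os04g0376400 had the opposite pattern, with 4.296, 6.46 and 3.83 CPM at 28 °C and 3.83, 4.18 and 5.09 CPM under heat in HJX and 3.81, 3.99 and 5.42 CPM at 28 °C and 8.98, 7.14 and 8.76 CPM under heat in HPS32 (-0.16 ± 0.22 and log2 0.91 ± 0.21, adjusted p = 0.000754). Its heat libraries stood above the 28 °C libraries in HPS32 and overlapped with them in HJX.

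On chromosome 11, between 28727508 and 28783983, 14 members lie next to each other, 9 of which were tested: 8 GH18 genes and the thaumatin gene Os11g0703100. In HJX 5 of the 9 rose under heat and 2 fell, and in HPS32 2 rose and 3 fell. Where neighbours are near-identical in sequence, reads can be split between them or left uncounted, so the values of single genes in this run are less certain. How alike the neighbours are was not tested. Os11g0701000 (chromosome 11, 28727508 to 28728821) read 0.0728, 0.326 and 0.0723 CPM at 28 °C and 7.29, 6.92 and 4.98 CPM under heat in HJX. The HPS32 libraries read 0.366, 0.926 and 0.282 CPM at 28 °C and 0.769, 0.213 and 0.412 CPM under heat. The 3 HJX heat libraries stood above the other 9, which overlapped (HJX log2 5.23 ± 0.501, adjusted p = 1.35e-08; HPS32 log2 -0.17 ± 0.54, adjusted p = 0.797). Without HJX replicate 2 at 28 °C the HJX value was 6.31. Next to it, Os11g0701100 read 0.437, 1.04 and 1.23 CPM at 28 °C and 17.1, 20.5 and 15.7 CPM under heat in HJX, and 1.17, 1.99 and 1.69 CPM at 28 °C and 1.03, 1.28 and 0.876 CPM under heat in HPS32. Again the HJX heat libraries alone were high (HJX log2 4.28 ± 0.26, adjusted p = 1.79e-11; HPS32 log2 -0.61 ± 0.302, adjusted p = 0.0782). Without HJX replicate 1 or HPS32 replicate 1 at 28 °C the HPS32 value became a call (-0.61, adjusted p = 0.0466, and -0.80, adjusted p = 0.0351).

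Further along the run, Os11g0702100 went from 3.79, 4.701 and 3.18 to 16.9, 22.8 and 23.97 CPM in HJX and read 3.15, 5.55 and 3.17 CPM at 28 °C and 4.05, 5.12 and 3.71 CPM under heat in HPS32 (HJX log2 2.44 ± 0.22, adjusted p = 6.85e-09; HPS32 log2 0.12 ± 0.23, adjusted p = 0.671). By total reads the HPS32 value was called (0.68, adjusted p = 0.0127). Its neighbour Os11g0702200 had 1 read in each 28 °C group and read 4.603, 4.87 and 5.66 CPM in the HJX and 1.28, 0.799 and 0.515 CPM in the HPS32 libraries under heat. Os11g0701200, with 2 and 0 reads in the 28 °C groups of HJX and HPS32, read 0.717, 0.873 and 0.734 and 0.154, 0.1599 and 0.155 CPM under heat. For both, the HJX heat libraries stood above those of HPS32, and the 28 °C reads are too few for a fold change. Os11g0701500 moved the other way, from 15.2, 17.1 and 25.7 to 1.67, 1.75 and 1.05 CPM in HJX (log2 -3.71 ± 0.27, adjusted p = 2.71e-09). In HPS32, Os11g0701500 went from 12.7, 16.2 and 21.8 to 0.513, 0.426 and 0.309 CPM, a fall in both lines (log2 -5.32 ± 0.32, adjusted p = 3.77e-10). Os11g0701800 read 1.02, 0.653 and 0.651 CPM at 28 °C and 1.196, 2.25 and 1.42 CPM under heat in HJX and 0.366, 0.641 and 1.69 CPM in HPS32 at 28 °C, and had no read in the HPS32 heat libraries. Against a floor of 3 counts per library it was at least 5.76-fold lower there than in HPS32 at 28 °C (3.23-fold without HPS32 replicate 3), and at least 10.4-fold lower than in HJX under heat. The untested neighbour Os11g0701400 was likewise unread in the HPS32 heat libraries and at least 5.43-fold lower than in HJX under heat. The thaumatin gene at the end of the run fell in both lines (-1.73 ± 0.17 and -1.29 ± 0.16).

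**Figure D4:**
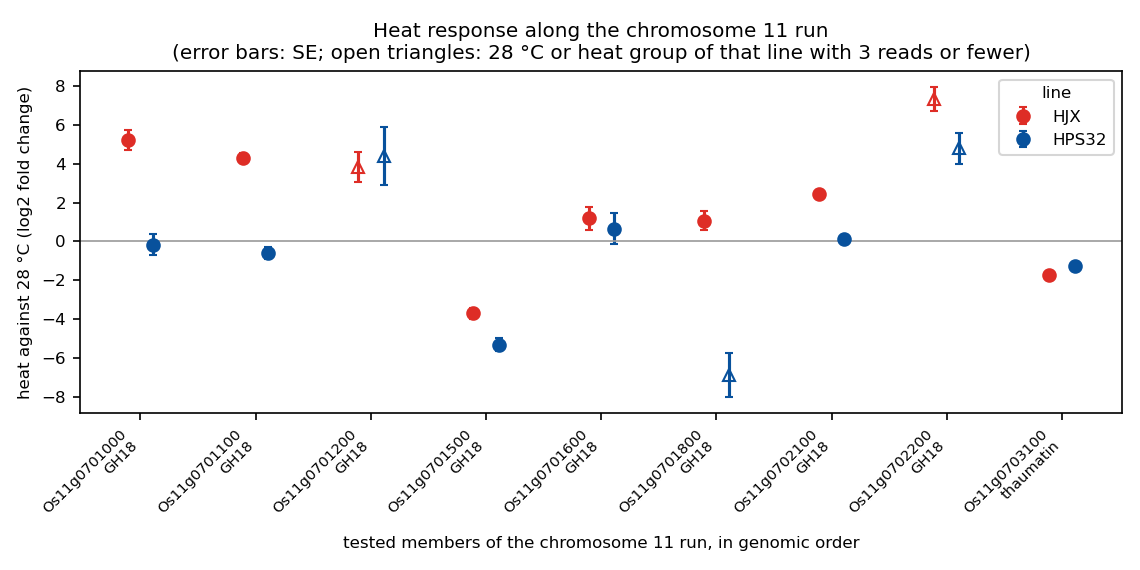
Log2 fold change of heat against 28 °C for the 9 tested members of the chromosome 11 run, in genomic order and not to scale along the horizontal axis, in HJX (red) and HPS32 (blue) with SE as error bars. Open triangles mark genes with 3 reads or fewer in a group of that line, whose values depend on the fit. Os11g0701000, Os11g0701100 and Os11g0702100 lie at 5.23, 4.28 and 2.44 in HJX and between -0.61 and 0.12 in HPS32.

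Among the 23 tested thaumatin genes, 8 rose and 12 fell in HJX (median -0.49), and 6 rose and 11 fell in HPS32 (median -0.38, or 0.18 when scaled by total reads). Os12g0569300 (chromosome 12, 23427730 to 23428732) read 81.5, 82.8 and 97.3 CPM at 28 °C and 568, 584 and 441 CPM under heat in HJX. In HPS32 the libraries read 77.6, 80.2 and 103 CPM at 28 °C and 127, 114 and 87.8 CPM under heat. The HJX heat libraries stood apart from the other 9, and the HPS32 groups overlapped (HJX log2 2.605 ± 0.17, adjusted p = 5e-08; HPS32 log2 0.33 ± 0.16, adjusted p = 0.0862). With the replicate block (0.47, adjusted p = 0.0457), with DESeq2 (0.37, adjusted p = 0.021), and without HPS32 replicate 3 at 28 °C or HPS32 heat library 3 (0.47 in each, adjusted p = 0.0206 and 0.00962), the HPS32 value passed the test, as it did by total reads (0.898, adjusted p = 0.000527). Os12g0569500, less than 10 kb away on chromosome 12, moved in the opposite direction. It read 281, 236 and 150.4 CPM at 28 °C and 23.3, 25.02 and 18.8 CPM under heat in HJX and 237, 194 and 189.7 CPM at 28 °C and 17.5, 16.5 and 21.9 CPM under heat in HPS32, a fall in both lines (HJX log2 -3.32 ± 0.25, adjusted p = 1.27e-06; HPS32 log2 -3.47 ± 0.25, adjusted p = 1.18e-06).

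Os03g0244200 (chromosome 3, 7626455 to 7629565) had the largest rise of a thaumatin gene in both lines. It went from 54.5, 50.1 and 34.6 to 721, 666 and 691 CPM in HJX (log2 3.9 ± 0.195, adjusted p = 7.5e-09). In HPS32, Os03g0244200 went from 56.2, 46.3 and 34.6 to 369, 385 and 347 CPM (log2 3.005 ± 0.19, adjusted p = 7.46e-08). All heat libraries stood above those at 28 °C, and the HJX heat libraries above those of HPS32. It overlaps a pair of genes on the opposite strand, and since the counting is not stated to use strand, their reads cannot be told apart. Its neighbour Os03g0243900, which also overlaps an opposite gene, was at -0.58 ± 0.079 in HJX and -0.24 ± 0.078 in HPS32; the second value was -0.16 (adjusted p = 0.111) with the replicate block and 0.32 (adjusted p = 0.0012) by total reads. The same call was lost without HPS32 replicate 3 at 28 °C (-0.19, adjusted p = 0.0533). In all, 11 of the 82 tested members overlap a gene on the other strand.

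Os09g0498200, another of these 11, read 0.728, 1.31 and 1.01 CPM at 28 °C and 5.74, 5.74 and 6.61 CPM under heat in HJX (log2 2.55 ± 0.29, adjusted p = 1.35e-07). In HPS32, Os09g0498200 read 0.659, 0.498 and 1.06 CPM at 28 °C and 0.718, 0.906 and 0.567 CPM under heat (log2 -0.02 ± 0.37, adjusted p = 0.965). Its HJX heat libraries were the only ones above 2 CPM. Os04g0165000, also among the 11, fell in HJX from 2.48, 2.22 and 3.18 to 0.418, 0.624 and 0.367 CPM and read 1.76, 2.56 and 2.04 CPM at 28 °C and 1.39, 0.799 and 1.701 CPM under heat in HPS32 (HJX log2 -2.48 ± 0.37, adjusted p = 5.54e-06; HPS32 log2 -0.71 ± 0.32, adjusted p = 0.0565). Here the heat libraries were lower in both lines, and the HPS32 change passed the test without HPS32 replicate 1 at 28 °C or HPS32 heat library 3 (adjusted p = 0.0477 and 0.0302). Os06g0691200 read 12.7, 10.7 and 11.9 CPM at 28 °C and 7.47, 9.86 and 7.76 CPM under heat in HJX (log2 -0.49 ± 0.18, adjusted p = 0.0182). In HPS32, Os06g0691200 read 14.1, 8.402 and 13.4 CPM at 28 °C and 22.1, 20.6 and 16.6 CPM under heat (log2 0.72 ± 0.17, adjusted p = 0.000951). Its groups did not overlap in either line, but the HJX call was lost by total reads (-0.20, adjusted p = 0.319) and without HJX replicate 1 at 28 °C or one of HJX heat libraries 1 and 3 (adjusted p from 0.0608 to 0.0724).

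On chromosome 12, a run of 7 thaumatin members between 26913087 and 26981082 held 4 tested genes, and all 4 fell in both lines. Os12g0629600 had the largest fall of a tested thaumatin gene, from 8.81, 17.8 and 15.6 to 0.717, 0.936 and 1.21 CPM in HJX (log2 -3.86 ± 0.305, adjusted p = 5.34e-09). In HPS32, Os12g0629600 went from 10.6, 16.9 and 13.3 to 1.23, 1.07 and 0.722 CPM (log2 -3.75 ± 0.299, adjusted p = 7.96e-09). Os12g0629300 was at -2.81 ± 0.34 and -2.81 ± 0.32. Os12g0630100 and Os12g0630200, the pair with the higher levels, went from 52.4 ± 11.6 to 19.5 ± 1.98 CPM and from 117 ± 26.6 to 38.3 ± 3.76 CPM in HJX. In HPS32 the same genes went from 50.3 ± 2.62 to 9.05 ± 1.55 CPM and from 116 ± 12.7 to 22.1 ± 2.32 CPM. Thaumatin genes that rose in both lines beside Os03g0244200 were Os03g0661600 (1.94 ± 0.21 and 1.99 ± 0.22), Os08g0548650 (1.504 ± 0.17 and 1.47 ± 0.17), and the chromosome 10 neighbours Os10g0146901 (1.55 ± 0.32 and 1.18 ± 0.33) and Os10g0147200 (1.41 ± 0.22 and 0.86 ± 0.23). Os10g0146901 and Os10g0147200 overlap each other by 130 bases on opposite strands. Outside the chromosome 12 run, Os03g0663400, which read 79.5, 94.9 and 59.3 CPM in HJX and 79.2, 108 and 122 CPM in HPS32 at 28 °C, fell in both lines (-1.002 ± 0.25 and -1.796 ± 0.26), as did Os12g0568900 (-0.72 ± 0.25 and -1.21 ± 0.26). The HJX fall of Os12g0568900 was lost without HJX replicate 1 at 28 °C or HJX heat library 3 (adjusted p = 0.0936 and 0.0525) and by total reads (-0.42, adjusted p = 0.128).

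All 3 tested barwin genes lie within 11 kb on chromosome 11, between 22502008 and 22512374. Os11g0592000 read 49.4, 75.2 and 48.8 CPM at 28 °C and 109, 116 and 107 CPM under heat in HJX (log2 0.94 ± 0.15, adjusted p = 0.000136). In HPS32, Os11g0592000 read 65.8, 65.6 and 80.2 CPM at 28 °C and 52.4, 44.6 and 47 CPM under heat (log2 -0.56 ± 0.15, adjusted p = 0.00628). Os11g0592100 read 4.95, 7.25 and 5.86 CPM at 28 °C and 11.7, 9.48 and 11.5 CPM under heat in HJX (log2 0.85 ± 0.17, adjusted p = 0.00011). In HPS32, Os11g0592100 read 5.93, 7.05 and 6.06 CPM at 28 °C and 4.67, 4.42 and 4.43 CPM under heat (log2 -0.49 ± 0.17, adjusted p = 0.0158). For both, heat libraries were higher than 28 °C libraries in HJX and lower in HPS32, without overlap. The falls in HPS32 were not called with the replicate block (-0.40, adjusted p = 0.0577, and -0.31, adjusted p = 0.176), and by total reads the values were 0.007 (adjusted p = 0.969) and 0.068 (adjusted p = 0.732). Os11g0592200 went from 58.5, 93.2 and 77.7 to 28.3, 26.4 and 24.4 CPM in HJX (log2 -1.54 ± 0.14, adjusted p = 1.13e-07). In HPS32, Os11g0592200 went from 71.1, 75.6 and 81.4 to 12.9, 14.7 and 15.2 CPM, a fall in both lines (log2 -2.41 ± 0.14, adjusted p = 1.57e-09). Without HPS32 replicate 2 at 28 °C the HPS32 call of Os11g0592100 was also lost (-0.41, adjusted p = 0.0686).

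Of the 12 tested PR-1 genes, 8 fell and 2 rose in HJX (median -1.89), and 9 fell and 1 rose in HPS32 (median -1.14). By total reads the same number fell and rose in HJX (median -1.59), but 5 fell and 1 rose in HPS32 (median -0.58). Os01g0382400 (chromosome 1, 15958748 to 15959497), the PR-1 gene with the highest level, read 138, 210.2 and 175 CPM at 28 °C and 25.1, 34.8 and 22.4 CPM under heat in HJX. HPS32 had 167, 186 and 176 CPM at 28 °C and 14.4, 13.4 and 14.4 CPM under heat. The heat libraries were low in both lines and lowest in HPS32 (HJX log2 -2.67 ± 0.18, adjusted p = 1.28e-07; HPS32 log2 -3.65 ± 0.19, adjusted p = 1.74e-08). Os07g0129300 read 16.5, 17.2 and 21.4 CPM at 28 °C and 0, 0.187 and 0.0524 CPM under heat in HJX, a called fall (adjusted p = 1.62e-12). Its heat values rest on 0, 3 and 1 reads, so the fitted log2 value of -7.76, which became -9.015 without HJX heat library 2, is not read as a size. In HPS32 it read 11.2, 11.1 and 6.903 CPM at 28 °C and had 1 read in all under heat, too few for a fold change. The widely used marker PR1b, Os01g0382000, went from 18.6, 26.1 and 22.8 to 0.837, 2.31 and 1.26 CPM in HJX (log2 -3.95 ± 0.26, adjusted p = 7.24e-10). In HPS32, PR1b went from 16.1, 16.2 and 19.6 to 2.51, 1.44 and 1.701 CPM (log2 -3.19 ± 0.25, adjusted p = 7.95e-09). No library of one temperature reached the range of the other.

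PR1a, Os07g0129200, read 11.7, 22.5 and 14.8 CPM at 28 °C and 2.69, 4.804 and 4.51 CPM under heat in HJX (log2 -2.03 ± 0.35, adjusted p = 0.000287). In HPS32, PR1a read 8.64, 10.5 and 4.23 CPM at 28 °C and 3.69, 2.72 and 4.07 CPM under heat (log2 -1.15 ± 0.37, adjusted p = 0.0153). The heat libraries were lower in both lines, with a narrow gap in HPS32. The HPS32 call was lost by total reads (-0.59, adjusted p = 0.162) and without HPS32 replicate 2 at 28 °C or HPS32 heat library 2 (-0.88, adjusted p = 0.062, and -1.004, adjusted p = 0.0579). A fall in both lines was also called for Os02g0786500 (-1.49 ± 0.32 and -1.08 ± 0.29), Os02g0786900 (-3.74 ± 0.48 and -3.13 ± 0.42), Os10g0191300 (-1.75 ± 0.41 and -1.13 ± 0.41) and Os07g0127600 (-2.87 ± 0.41 and -2.43 ± 0.402). By total reads the HPS32 falls of Os02g0786500 and Os10g0191300 were not called (-0.519, adjusted p = 0.114, and -0.565, adjusted p = 0.239). That of Os10g0191300 was also lost with the replicate block (-0.913, adjusted p = 0.153), without the low-count filter (adjusted p = 0.0534) and without HPS32 replicate 1 or 2 at 28 °C or HPS32 heat library 2 or 3 (0.0669 to 0.0905). In contrast, Os07g0127500, less than 5 kb from Os07g0127600, rose in both lines, from 0.583, 0.522 and 0.0723 to 4.78, 2.75 and 7.71 CPM in HJX (log2 3.67 ± 0.62, adjusted p = 0.000166). In HPS32, Os07g0127500 went from 0.0732, 0.214 and 0.282 to 7.23, 2.399 and 5.102 CPM (log2 4.63 ± 0.71, adjusted p = 8.25e-05). Os07g0125500 rose in HJX, from 0.801, 2.09 and 0.434 to 3.59, 4.05 and 7.61 CPM, and read 0.659, 1.99 and 1.34 CPM at 28 °C and 1.44, 1.71 and 0.825 CPM under heat in HPS32, with overlap (HJX log2 2.17 ± 0.49, adjusted p = 0.0012; HPS32 log2 -0.015 ± 0.54, adjusted p = 0.982). Without HJX replicate 2 at 28 °C the HJX value was 3.03. PR1a, Os07g0129300, Os07g0127600, Os07g0127500 and Os07g0125500 belong to a run of 15 PR-1 members, the longest run in the set, of which the other 10 were not tested.

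PR-10 genes had no common direction. Of the 7 tested, 1 rose and 3 fell in HJX (median -0.18, or 0.12 by total reads), and 3 rose and 3 fell in HPS32 (median -0.13, or 0.44 by total reads). Os04g0465600 (chromosome 4, 23278475 to 23279374), the PR-10 gene with the highest level, read 214, 221 and 220.4 CPM at 28 °C and 72.8, 94.02 and 69.1 CPM under heat in HJX. The HPS32 libraries read 207, 213 and 226 CPM at 28 °C and 131, 147 and 163 CPM under heat. The heat libraries were lower in both lines and lower in HJX than in HPS32 (HJX log2 -1.48 ± 0.101, adjusted p = 2.11e-10; HPS32 log2 -0.55 ± 0.099, adjusted p = 7.47e-05, but 0.011 with adjusted p = 0.918 by total reads). JIOsPR10, Os03g0300400, named for its response to jasmonate, went from 4.005, 5.16 and 5.28 to 14.6, 12.8 and 19.1 CPM in HJX and read 4.54, 5.05 and 6.83 CPM at 28 °C and 4.51, 6.34 and 4.23 CPM under heat in HPS32 (HJX log2 1.69 ± 0.203, adjusted p = 3.36e-07; HPS32 log2 -0.13 ± 0.21, adjusted p = 0.607). The HJX heat libraries alone were high. Os04g0593400 and Os08g0374000 fell in both lines (-0.81 ± 0.26 and -3.31 ± 0.597 in HJX, -1.16 ± 0.26 and -2.45 ± 0.52 in HPS32).

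A run of 3 PR-10 genes on chromosome 12, between 22591681 and 22601182, includes PBZ1 (Os12g0555500), a rice gene long used as a marker of blast infection and of the plant activator probenazole. PBZ1 read 120.3, 159 and 144 CPM in HJX at 28 °C and 64.3, 153 and 157 CPM under heat. HPS32 had 76.4, 93.9 and 84.03 CPM at 28 °C and 172, 129 and 164 CPM under heat. HJX heat library 1 lay below every other HJX library, and the HPS32 heat libraries above the HPS32 28 °C libraries (HJX log2 -0.18 ± 0.31, adjusted p = 0.622; HPS32 log2 0.87 ± 0.31, adjusted p = 0.0327). The HPS32 call was lost with the replicate block (1.06, adjusted p = 0.0652) and without any one of the HPS32 libraries except heat library 2 (adjusted p 0.056 to 0.0933). Os12g0555200 read 15.5, 21.5 and 18.9 CPM at 28 °C and 13.9, 31.9 and 36.5 CPM under heat in HJX (log2 0.55 ± 0.304, adjusted p = 0.127). In HPS32, Os12g0555200 read 10.2, 11.3 and 10.9 CPM at 28 °C and 44.2, 40.8 and 36.5 CPM under heat (log2 1.902 ± 0.32, adjusted p = 0.000481). Os12g0555300, the gene between them, read 0.437, 1.502 and 1.01 CPM at 28 °C and 0.658, 1.497 and 2.52 CPM under heat in HJX (log2 0.66 ± 0.46, adjusted p = 0.196). In HPS32, Os12g0555300 read 0.513, 0.498 and 0.423 CPM at 28 °C and 2.56, 1.49 and 2.42 CPM under heat (log2 2.16 ± 0.497, adjusted p = 0.00074). For these as for PBZ1, HJX heat library 1 was the lowest of its group, and the HPS32 groups did not overlap. Without that library Os12g0555200 and Os12g0555300 rose in HJX too (0.87, adjusted p = 7.45e-06, and 1.02, adjusted p = 0.0405), and by total reads Os12g0555200 did so with all libraries (0.85, adjusted p = 0.0323). The adjacent gene RSOsPR10, Os12g0555000, whose description names a polyketide cyclase domain and which is not a member, had 40.1, 80.4 and 97.5 CPM in the HJX heat libraries, again lowest in library 1, and rose in HPS32 (log2 1.47 ± 0.31, adjusted p = 0.00267).

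The lines were next compared at each temperature, as HPS32 against HJX. At 28 °C no member was called in either direction, beside 0.0432% of all tested genes upward and 0.0432% downward, and the smallest adjusted p among the members was 0.199 (edgeR's quasi-likelihood test). An unadjusted p below 0.05 was found for 8 members, 9.76% of those tested, against 6.54% of all tested genes, and DESeq2 called 1 member and gave 10 such p-values. The gene with that DESeq2 call was Os07g0129300 (16.5, 17.2 and 21.4 CPM in HJX and 11.2, 11.1 and 6.903 CPM in HPS32, DESeq2 log2 -0.92, adjusted p = 0.0236; edgeR log2 -0.92 ± 0.21, adjusted p = 0.199), named here after its values were seen. Its HJX libraries were all higher than those of HPS32. Without HJX heat library 1, which enters the shared estimate of the spread, Os12g0555200 (-0.79, adjusted p = 0.0152) and PBZ1 (-0.73, adjusted p = 0.0422) were lower in HPS32 at 28 °C. PBZ1 also passed when the 28 °C groups were fitted alone (-0.74, adjusted p = 0.031).

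Under heat, 29 members were lower in HPS32 than in HJX (35.4%) and 9 were higher (11%), beside 23.6% and 21.6% of all tested genes. The median difference was -0.20 over the members and 0.03 over all tested genes, and by total reads 0.06 and 0.28, with 23 members lower and 16 higher. Among all 25473 tested genes, total reads gave 3092 lower and 9862 higher. GH18 genes made up 12 of the 29 lower and 2 of the 9 higher, thaumatin genes 7 and 3, barwin genes 3 and 0, PR-1 genes 3 and 0, chitinases 3 and 3, and PR-10 genes 1 and 1. By total reads the lower and higher members were 10 and 4 for GH18, 6 and 5 for thaumatin, 3 and 0 for barwin, 2 and 1 for PR-1, 1 and 4 for chitinases and 1 and 2 for PR-10. In the chromosome 11 run of GH18 genes, 8 of the 9 tested members were lower in HPS32 and none higher. The differences were -4.06 ± 0.25 for Os11g0701100, -3.75 ± 0.4 for Os11g0701000, -2.53 ± 0.34 for Os11g0702200 and -2.31 ± 0.21 for Os11g0702100, on the log2 scale. For Os11g0701600, with values between 0 and 1.15 CPM under heat, the call (log2 -1.48 ± 0.59, adjusted p = 0.0487) was lost by RLE scaling, total reads, no filter and DESeq2 (adjusted p 0.0542 to 0.0911). It was also lost without any of 9 single libraries, all except HJX replicates 1 and 3 at 28 °C and HPS32 heat library 2 (adjusted p 0.0543 to 0.164). The run holds 7 lower members beside it.

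Outside the run, the largest lower values in HPS32 under heat were those of Os09g0498200 (log2 -3.04 ± 0.29, adjusted p = 8.07e-08) and Os12g0569300 (log2 -2.27 ± 0.17, adjusted p = 7.75e-07). Os07g0125500 (-1.95 ± 0.46), the chromosome 2 transcript (-1.77 ± 0.29), JIOsPR10 (-1.63 ± 0.197), Os11g0592100 (-1.27 ± 0.17) and Os08g0518900 (-1.26 ± 0.31) followed. The gene with the highest level, Os05g0247100, was lower as well (log2 -0.96 ± 0.101, adjusted p = 2.71e-07). Higher in HPS32 were the thaumatin genes Os04g0165000 (1.47 ± 0.39) and Os06g0691200 (1.24 ± 0.17), the GH18 genes Os04g0376400 (0.92 ± 0.21) and Os11g0462100 (0.79 ± 0.18), and the PR-10 gene Os04g0465600 (0.904 ± 0.1). They also included the chitinases Os09g0494200 (0.58 ± 0.081), Os03g0132900 (0.52 ± 0.201) and Os08g0522500 (0.36 ± 0.09) and the thaumatin gene Os03g0243900 (0.42 ± 0.079). The call of Os03g0132900 (adjusted p = 0.0418) was lost with the replicate block (adjusted p = 0.0616), with only the compared groups (0.0991), and without HPS32 replicate 3 at 28 °C, HJX heat library 2 or 3, or HPS32 heat library 2 or 3 (0.0513 to 0.187). With the replicate block 31 members were lower and 8 higher, and Os03g0661600, Os10g0146901 and Os10g0416800 joined the lower ones (-0.43, -0.60 and -0.62, with adjusted p = 0.0262, 0.00127 and 0.00262), while Os05g0595000 left them (-0.91, adjusted p = 0.0504). The call of Os05g0595000 (adjusted p = 0.049) was also lost without any single library except HJX replicate 1 at 28 °C and HJX heat library 3 (0.0524 to 0.287), and by RLE scaling, total reads, DESeq2 and only the compared groups (0.0607 to 0.149). Among the lower members, Os01g0660200 lost its call in 5 fits without a single library (0.0512 to 0.182). The chromosome 12 transcript of the chitinase-like type (0.055 to 0.181) and the thaumatin gene Os10g0412700 (0.0579 to 0.106) lost theirs in 4 each.

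The interaction asks whether the heat response itself differed between the lines, as the response of HPS32 minus that of HJX. It was called for 27 members, 19 with a lower response in HPS32 (23.2%) and 8 with a higher one (9.76%), beside 16.0% and 13.3% of all tested genes. The median was -0.16 over the members and 0.02 over all tested genes, and by total reads 0.10 and 0.28, with 14 lower and 15 higher. Among all 25473 tested genes, total reads gave 1900 lower and 6581 higher responses. Of the 19, 8 rose in HJX without a call in HPS32, 3 rose in HJX and fell in HPS32, 2 rose in both with the smaller rise in HPS32, 5 fell in both with the larger fall in HPS32, and Os11g0701800 was called in HPS32 alone. Of the 8, 3 fell in both lines with the smaller fall in HPS32, 2 fell in HJX without a call in HPS32, 1 fell in HJX and rose in HPS32, and 2 rose in HPS32 without a call in HJX.

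All 3 barwin genes were among the 19, with values from -0.88 ± 0.19 to -1.49 ± 0.21, as were 7 GH18 genes, 5 thaumatin genes, 2 PR-1 genes, 1 PR-10 gene and 1 chitinase-type transcript. The GH18 genes of the chromosome 11 run gave the largest fitted values apart from Os11g0701800, which is unread in a group, with log2 -5.396 ± 0.81, adjusted p = 5.85e-05 for Os11g0701000 and log2 -4.89 ± 0.41, adjusted p = 6.29e-08 for Os11g0701100. The value of Os11g0701000 was -6.48 without HJX replicate 2 and -4.71 without HPS32 replicate 2 at 28 °C. Os09g0498200 (-2.57 ± 0.48), Os11g0702100 (-2.33 ± 0.32), Os12g0569300 (-2.27 ± 0.23) and JIOsPR10 (-1.81 ± 0.29) followed among the genes whose calls held without each single library. Os05g0247100 and Os06g0356800, the pair of GH18 genes with the highest levels, were at log2 -1.12 ± 0.14, adjusted p = 1.02e-05, and log2 -0.96 ± 0.14, adjusted p = 5.49e-05. On the other side stood the thaumatin genes Os04g0165000 (1.77 ± 0.49), Os06g0691200 (1.22 ± 0.24) and Os03g0243900 (0.34 ± 0.11), the GH18 genes Os11g0462100 (1.11 ± 0.25) and Os04g0376400 (1.07 ± 0.303), the PR-10 gene Os04g0465600 (0.93 ± 0.14) and BC15 (0.43 ± 0.11). The eighth gene on that side, Os12g0555200 (log2 1.35 ± 0.44, adjusted p = 0.0468), was not called with the replicate block (adjusted p = 0.0848), without the low-count filter (0.0708), or without any single library except HJX heat libraries 1 and 3 (0.0549 to 0.102).

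Some of these interaction calls depended on single libraries. The chromosome 2 transcript (log2 -1.39 ± 0.46, adjusted p = 0.0279) lost its call without HJX replicate 1 or 2 or HPS32 replicate 2 or 3 at 28 °C, HJX heat library 2 or HPS32 heat library 3 (adjusted p 0.0532 to 0.106). Os07g0125500 (log2 -2.19 ± 0.74, adjusted p = 0.0394) lost it without HJX replicate 1 or 3 or HPS32 replicate 2 or 3 at 28 °C, HJX heat library 3 or HPS32 heat library 1 or 3 (0.0641 to 0.129) and without the low-count filter (0.0589), and its value was -3.05 without HJX replicate 2 at 28 °C. Os11g0701500 (log2 -1.61 ± 0.47, adjusted p = 0.0181) lost it without HJX heat library 1 or 2 or HPS32 heat library 3 (0.0533 to 0.0655), and Os03g0244200 (log2 -0.895 ± 0.25, adjusted p = 0.0215) without HJX heat library 1 or HPS32 heat library 3 (0.0513 and 0.0529). Os03g0243900 lost it without HPS32 replicate 1 at 28 °C, HJX heat library 3 or HPS32 heat library 1 (0.0723 to 0.0895), and Os04g0376400 without HJX replicate 2 at 28 °C (0.0518). By total reads the transcript, Os07g0125500 and Os03g0244200 were also not called (adjusted p = 0.0687, 0.06 and 0.06), nor were Os01g0382400 (-0.71, adjusted p = 0.0538) and Os12g0630200 (-0.52, adjusted p = 0.0934). Conversely, PBZ1 passed without HJX heat library 1 (0.73, adjusted p = 0.00849) and with DESeq2 (1.09, adjusted p = 0.0441).

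Members less than 100 kb apart formed 16 runs of at least 3 genes, of 3 to 15 members each, which held 81 of the 154. Some of these members overlap another on the opposite strand, as Os01g0860500 lies inside Os01g0860450, so the runs hold fewer separate loci than members. Inside runs 46 of 81 members were tested (56.8%), outside 36 of 73 (49.3%). Of the 13 runs with at least 2 tested members, 7 held both a rise and a fall in HJX and 5 in HPS32. Among all tested genes 38.1% rose and 36.8% fell in HJX, and 34.0% and 36.4% in HPS32. The share of mixed runs among other neighbouring genes was not computed, so these counts are not read as a trait of the members. Examples are Os12g0569300 beside Os12g0569500, Os03g0244200 beside Os03g0243900, Os07g0127500 beside Os07g0127600, and Os11g0592000 beside Os11g0592200 in HJX. The 4 tested thaumatin genes of the chromosome 12 run at 26913087 and the 3 tested GH18 genes of chromosome 10 had no rise in either line, and in the PR-10 run no tested gene fell.

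Other PR-type lists and the known regulators gave a setting for these values. Among all tested genes 38.1% rose and 36.8% fell in HJX, and 34.0% rose and 36.4% fell in HPS32. Between the lines under heat, 23.6% were lower and 21.6% higher in HPS32. List counts near these shares are not read as a trait of the list. Of 52 tested glucanase genes of family 17, the type that cuts beta-glucans of fungal walls, 17 rose and 26 fell in HJX (median -0.23) and 17 rose and 28 fell in HPS32 (median -0.41). Of 8 tested protease inhibitor genes of the PR-6 type and its relatives, 5 rose and 2 fell in HJX (median 1.27) and 4 rose and 2 fell in HPS32 (median 0.62), and under heat 7 were lower and 1 higher in HPS32. Their summed level was between 570 and 716 CPM at 28 °C, between 1672 and 1916 CPM in HJX under heat and between 925 and 971 CPM in HPS32 under heat. Of 7 tested LysM genes, whose products bind chitin fragments, 3 rose and 4 fell in HJX, and 2 rose and 3 fell in HPS32. Of 7 tested genes of ribosome-inactivating proteins 2 rose and 2 fell in HJX and 3 rose and 1 fell in HPS32. Both tested thionin or defensin genes rose in both lines. Subtilases had 13 rises and 15 falls of 36 in HJX and 14 and 14 in HPS32. Lipoxygenases, only some of which open the jasmonate pathway, had 4 rises and 7 falls of 12 in each line. The cyclin list, a mark of dividing tissue, had 10 rises and 13 falls of 32 in HJX and 8 and 12 in HPS32. Scaled by total reads, the glucanase median turned to 0.07 in HJX (19 rises and 19 falls) and 0.15 in HPS32 (24 and 15), that of the cyclins to 0.10 and 0.39 and that of the LysM genes in HPS32 to 0.27, while the protease inhibitors stayed positive (1.56 and 1.18).

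NPR1, Os01g0194300, rose in both lines, from 25.99, 29.5 and 28.1 to 169.5, 169 and 160.1 CPM in HJX (log2 2.58 ± 0.11, adjusted p = 1.3e-13). In HPS32, NPR1 went from 27.7, 26.99 and 19.4 to 51.6, 50.4 and 44.8 CPM (log2 0.99 ± 0.105, adjusted p = 1.32e-07). The HJX heat libraries were more than 3-fold above those of HPS32, and the response was smaller in HPS32 (interaction log2 -1.59 ± 0.15, adjusted p = 3.7e-07). WRKY45, Os05g0322900, read 206, 159 and 83.3 CPM at 28 °C and 20.1, 22.1 and 19.4 CPM under heat in HJX (log2 -2.86 ± 0.51, adjusted p = 0.000807). In HPS32, WRKY45 read 214, 98.8 and 60.3 CPM at 28 °C and 53.1, 44.6 and 42.1 CPM under heat (log2 -1.41 ± 0.47, adjusted p = 0.0256). Its 28 °C libraries were spread widely and ran parallel between the lines, highest in replicate 1 of both, and the interaction was not called (log2 1.45 ± 0.68, adjusted p = 0.151). By total reads its HPS32 fall was not called (-0.85, adjusted p = 0.124), and NPR1 was at 2.87 in HJX and 1.55 in HPS32.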

How the data were processed

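Total RNA of 12 samples, 3 in each of 4 groups, was made into sequencing libraries with an Illumina TruSeq kit, per the labels' protocols. Per the submitters' processing notes the tools were HISAT2 2.0.5, featureCounts 1.5.0-p3 and DESeq2 1.20.0; the genome build, the annotation and the use of strand are not given in the sources used here. The authors deposited raw counts per gene, FPKM values, log2 fold changes, p-values and group means; the last 3 kinds were not used. The 6 FPKM columns of the heat libraries could not be matched to single samples and were left out, so levels between genes are TMM-scaled CPM per kilobase of deposited gene length. At 28 °C the authors' deposited FPKM ranked the same 10 members highest, and their implied library factor (0.9471 to 1 over genes with at least 50 reads) was close to the inverse TMM factor (0.9473 to 1).

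Counts were tested with edgeR 4.0.16 in R 4.3.3 (quasi-likelihood F test, robust, two-sided) with filterByExpr, TMM scaling (factors 0.8427 to 1.278), all 12 libraries in 1 fit and Benjamini-Hochberg adjustment over all 25473 tested genes at 0.05. CPM values use TMM-scaled library sizes. Standard errors are |log2 fold change|/sqrt(F). The procedure was tested on simulated data with 200 changed genes, balanced in direction. So few changes do not test the scaling under changes as wide as those of heat. With 14785975 to 17871972 assigned reads per library, a group with 0 reads was set to a floor of 3 counts per library, which covers counting error only, and genes with 1 to 3 reads in a group get no fold change.

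The replicate numbers in the heat columns could not be tied to the numbers in the sample titles, so heat libraries are numbered by their columns. At 28 °C the deviations of libraries of the same number in the 2 lines had r = 0.426, 0.1126 and 0.4025, over genes whose mean log2 CPM reached 1. Libraries of different numbers had -0.4305 to 0.07478, close to the 0.1126 of number 2. Deviations are from each group's own mean, so high values for matched numbers lower the others. The numbers were taken to pair those libraries, by the data and not by the labels, and the pairing was not tested. The 28 °C number was used as a block in an alternative fit. Further alternatives were RLE scaling, total counts, other count filters, DESeq2 1.42.0, fits of only the compared groups, a 2-fold minimum and leaving out each library.

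The members and gene lists were chosen with earlier results of these data known. Named genes were first those with the largest called change and the highest level (CPM per kb in place of FPKM) per family and comparison, with the known markers, 34 in all; every other tested member named was chosen after its values were seen. Trivial names such as PR1a, PBZ1, BC15, NPR1 and WRKY45 are general knowledge matched by identifier. Domain wording came from the deposited descriptions. "Methionine" descriptions, which match the text of the thionin rule by accident, were removed after the descriptions were read.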

Additional observations from a re-analysis of the deposited data

Results flagged for a closer look

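For 27 of the 82 tested members the heat response differed between HPS32 and HJX in the test of the difference itself (edgeR's quasi-likelihood interaction, HPS32 response minus HJX response, Benjamini-Hochberg threshold 0.05 over all tested genes). The calls were not equally firm. That of Os12g0555200 was lost in 10 of the fits without a single library, that of Os07g0125500 in 7 and that of the chromosome 2 transcript in 6. Os11g0701500 and Os03g0243900 lost theirs in 3 such fits each, Os03g0244200 in 2 and Os04g0376400 in 1. No explanation was weighed. The values below are on the log2 scale.

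Genes that rose in HJX and were not called in HPS32 were Os11g0701000 (-5.396), Os11g0701100 (-4.891), Os09g0498200 (-2.573), Os11g0702100 (-2.326), Os12g0569300 (-2.271), Os07g0125500 (-2.186), Os03g0300400 (-1.815) and the chromosome 2 transcript of the xylanase inhibitor type (-1.39). Genes that rose in HJX and fell in HPS32 were Os11g0592000 (-1.492), Os11g0592100 (-1.348) and Os05g0247100 (-1.116), though these falls were not called by total reads. Os06g0356800 (-0.962) and Os03g0244200 (-0.895) rose less in HPS32. Os11g0701500 (-1.611), Os12g0630100 (-1.04), Os01g0382400 (-0.975), Os11g0592200 (-0.875) and Os12g0630200 (-0.787) fell further in HPS32. Os11g0701800 had no read in the HPS32 heat libraries, so its size is given only as at least 5.759-fold lower than in HPS32 at 28 °C, or 3.225-fold without HPS32 replicate 3 at 28 °C.

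In the other direction, Os04g0465600 (0.926), Os09g0494200 (0.435) and Os03g0243900 (0.337) fell less in HPS32, and Os04g0165000 (1.769) and Os11g0462100 (1.109) fell in HJX without a call in HPS32. Os12g0555200 (1.348) and Os04g0376400 (1.068) rose in HPS32 without a call in HJX, but Os12g0555200 rose in HJX too without HJX heat library 1. Os06g0691200 (1.215) fell in HJX and rose in HPS32, though its fall was not called by total reads. With 3 libraries in every group, no group was large enough for the check of single values that stand apart.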

How the results depend on the processing

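Over the 82 tested members and 5 comparisons, 410 gene results were compared with 8092 values from alternative fits, of which 7767 kept direction and side of the threshold, 227 lost the call, 92 gained one and 6 reversed a called direction. All 6 reversals were heat in HPS32 scaled by total counts: Os03g0243900 (0.32), Os04g0465600 (0.011), Os09g0494200 (0.268), Os10g0146200 (0.182), Os11g0592000 (0.007) and Os11g0592100 (0.068). That scaling raised the median of all genes, as given with the heat results. It gave 25 members that rose in HPS32, 16 higher in HPS32 under heat and 15 with a higher response in HPS32. Over all tested genes the same counts were 14369, 9862 and 6581. A 2-fold minimum left 2 higher and 17 lower in HPS32 under heat and 5 with a higher response. For the lines at 28 °C, DESeq2 gave 1 lower member and the fit of the compared groups alone gave 1.

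Leaving out each library gave 23 to 25 members that rose and 42 to 46 that fell in HJX, 15 to 17 and 41 to 48 in HPS32, 8 to 11 higher and 25 to 32 lower in HPS32 under heat, and 6 to 10 higher and 15 to 19 lower responses. At 28 °C it gave 0 to 2 lower and 0 higher members, with 2 lower without HJX heat library 1. Without that library, the lowest in the PR-10 run, 25 rose and 44 fell in HJX and the interaction counts were 10 and 17.

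With the replicate number at 28 °C as a block, which cannot block the heat libraries, 23 members rose and 43 fell in HJX, 17 and 39 in HPS32, 8 were higher and 31 lower in HPS32 under heat, and 7 and 19 responses were higher and lower. The block changed 18 calls. Beside those given with the results, Os10g0543400 lost its fall in HJX (-1.133, adjusted p = 0.101), and Os05g0595000 (-0.894, adjusted p = 0.0947) and Os10g0146200 (-0.391, adjusted p = 0.0941) theirs in HPS32. It changed no other call of a member.

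The 10 members with the highest CPM per kilobase at 28 °C were also the 10 highest by FPKM. Pseudocounts were not needed because counts were deposited. Depth limits the 72 untested members and the genes of 3 reads or fewer, the replicates are 3 per group, and reads of near-identical neighbours may be split between them or left uncounted.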
